A study of Homo sapiens with 4 samples.

Results

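The genes described here are 10 oncofetal targets of the let-7 microRNAs: HMGA1, HMGA2, LIN28A, LIN28B, IGF2BP1, IGF2BP2, IGF2BP3, ARID3B, TRIM71 and PLAGL2. They were chosen by gene symbol, all 10 were found, and each had 1 probe set, out of 18603 probe sets and 15870 named genes in all. Their mRNAs were measured in MDA-MB-231 cells, an established mesenchymal-like human breast carcinoma line, on 4 arrays. On 2 arrays the cells were labelled shDROSHA, for a short hairpin RNA against DROSHA, and on 2 they were the control labelled shNC, which the design text calls mock-transfected. All 4 cultures were grown in the same serum-supplemented medium with antibiotics, the replicates are labelled biological, and the sources used here state neither the hairpin sequences nor their number nor the time after transfection. The arrays compared the shDROSHA cells with the control, mRNA by mRNA.

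DROSHA is the nuclear ribonuclease that cuts microRNA stem-loops out of their primary transcripts, and DICER1 then trims them to mature microRNAs. let-7 is an abundant microRNA family of differentiated cells that lowers its target mRNAs by pairing its seed with sites in their 3′ untranslated regions. Most of the genes described here are known for high expression in embryonic tissue, a decline as let-7 accumulates during development, and re-expression in tumours, which is why they are called oncofetal. LIN28A and LIN28B also act back on the family: they bind let-7 precursors and block their maturation.

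The mature sequences are shown because the shared seed is what ties these genes to one family of regulators. They are from RefSeq (GRCh38.p14), written 5′ to 3′, with the seed, bases 2 to 8, in capitals. Of 2370 mature human microRNAs in that table, 11 (0.464%) carry the seed GAGGUAG, and 9 of these are the let-7 and miR-98 forms made from 12 genes.
let-7a: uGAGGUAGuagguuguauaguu
let-7b: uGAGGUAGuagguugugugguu
let-7c: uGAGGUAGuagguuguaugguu
let-7d: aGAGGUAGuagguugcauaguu
let-7e: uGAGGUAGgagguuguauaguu
let-7f: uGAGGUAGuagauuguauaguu
let-7g: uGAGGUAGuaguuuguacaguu
let-7i: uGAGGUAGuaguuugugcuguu
miR-98: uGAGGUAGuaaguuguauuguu
All 9 are 22 bases long, and outside the seed they differ from let-7a at 1 to 4 bases, the most being in let-7i. They come from primary transcripts on chromosomes 3, 9, 11, 12, 19, 21, 22 and X, all of which are substrates of DROSHA. Some of the genes lie close together on the same strand of chromosome 9, 22 or X. Mature microRNAs were not measured on these arrays, so the level of let-7 itself is not known here.

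LIN28 proteins recognise a GGAG motif in the stretch between the arms of a let-7 stem-loop. GGAG was searched on the RNA strand, after the 5′ mature arm and before the 3′ one (to the end of the stem-loop for let-7f-2, whose 3′ arm is not in the table). It was present in 9 of the 12 let-7 and miR-98 stem-loops and absent from 3 (let-7a-3, let-7b and miR-98). Of all 739 human stem-loops with both arms in the table, 60 (8.12%) held it. An example with and an example without the motif are printed, with GGAG in capitals.
let-7a-1: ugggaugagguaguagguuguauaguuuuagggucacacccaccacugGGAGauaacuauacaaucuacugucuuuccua
let-7b: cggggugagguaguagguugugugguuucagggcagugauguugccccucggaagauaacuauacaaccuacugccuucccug
The first lies at chr9:94175957-94176036 on the plus strand and the second at chr22:46113686-46113768 on the plus strand. A match is a feature of the sequence and shows no binding in these cells.

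The knockdown was present in the array data. DROSHA had log2 signals of 8.71 and 8.74 in shDROSHA cells, against 9.66 and 9.76 in shNC cells, a log2 difference of -0.99 (SE 0.073, limma adjusted p = 3.89e-06). The fold of shDROSHA over shNC was 0.504, so part of the DROSHA mRNA signal remained, and DROSHA protein was not measured. The groups did not overlap. Median log2 signals of the arrays lay between 7.21 and 7.25, and array values correlated across probe sets at 0.9937 within shDROSHA, 0.9945 within shNC and 0.9896 to 0.992 between groups. The 5 markers fixed for a breast carcinoma line of mesenchymal kind were VIM, CD44, SPARC, LGALS1 and KRT18, the last an epithelial keratin. All 5 lay above every olfactory receptor probe set, the gauge of background described below. Of the luminal or epithelial markers CDH1 had no named probe set. Among the 3 with a probe set, KRT19 lay above every olfactory receptor probe set. EPCAM lay above the 95th percentile of that gauge but not its highest value, and ESR1 lay below the percentile. All 7 leukocyte, endothelial, adipocyte and embryonic stem cell markers with a probe set lay below it as well.

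None of the 10 oncofetal let-7 targets passed the test for a change in shDROSHA cells. In limma, with a prior variance that follows signal level and adjustment over all probe sets, 0 rose and 0 fell at an adjusted p of 0.05, where 6.41% of all probe sets passed, 3.12% higher and 3.28% lower. Median centring of the arrays made 62.5% of the calls over all probe sets higher, against 48.7% as deposited. The arrays measured RNA of whole cultures, so a lower level in every cell and fewer cells with the mRNA cannot be told apart. At an unadjusted p of 0.05 there was 1, HMGA1, against 19.3% of all probe sets. With a constant prior variance 0 passed over all probe sets and 1, LIN28A, at the unadjusted threshold, where that fit had 0.00538% and 14.9% of all probe sets. The median log2 difference of the 10 genes was -0.06, beside 0.00086 over all probe sets, and 3 were higher and 7 lower. The lower ones include ARID3B at -0.00036. Over all probe sets 9343 were higher and 9260 lower. Among the 5 genes above every olfactory receptor probe set, 2 were higher and 3 lower. For 3 of the 10 genes (30%) the arrays of the groups did not overlap, as for 47.8% of all probe sets. The shares are those of small numbers, and 2 arrays against 2 cannot give an exact permutation p below 0.333 (two-sided), so each test rests on spread pooled across probe sets.

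Signal level divides the 10 genes into 5 that were clearly measured and 5 that may not have been. The array carries 117 probe sets for olfactory receptors, genes of the nasal epithelium that a breast carcinoma line is not known to use, and the range of their mean log2 signals was taken as a gauge of background after the values were seen. Their 5th to 95th percentiles were 4.23 and 6.53, and their highest value was 7.31. HMGA1, HMGA2, IGF2BP2, IGF2BP3 and PLAGL2 lay above every one of these probe sets. LIN28A, LIN28B, IGF2BP1, ARID3B and TRIM71 lay within the percentile range, so their values do not show that the mRNA was present, and a change in a level near background would be compressed. Signals of different probe sets also depend on the probes, so no order of abundance is drawn among the genes.

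**Figure D1:**
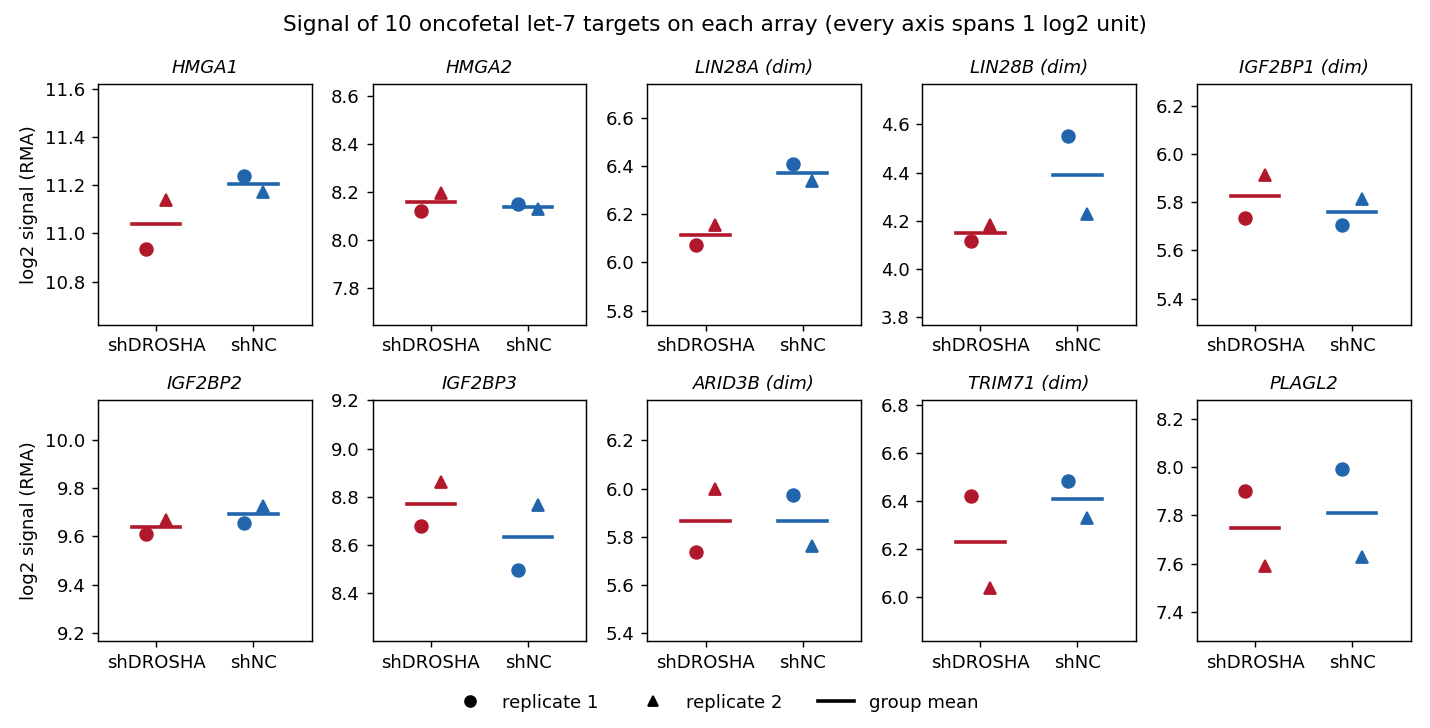
Log2 signal (y axis, RMA) of each of the 10 genes in shDROSHA and shNC cells; circles are replicate 1, triangles replicate 2, bars the mean of the 2 arrays, every axis spans 1 log2 unit, and "dim" marks a gene within the olfactory receptor range. Only HMGA1, LIN28A and LIN28B have groups that do not overlap, all lower in shDROSHA, and for 9 of the 10 genes, all but LIN28A, the replicates of at least 1 group lie further apart than the group means.

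The HMGA proteins are small chromatin proteins that bind the minor groove of AT-rich DNA through AT-hooks and help other factors assemble at promoters and enhancers. HMGA2 is the target most often used as a readout of let-7, with its sites in a long 3′ untranslated region. HMGA2 (probe set TC1200008041.hg.1, chromosome 12) had log2 signals of 8.12 and 8.20 in shDROSHA cells, against 8.15 and 8.13 in shNC cells. Both shNC values lay between the shDROSHA values. Its log2 difference was 0.02 (SE 0.094, 95% interval -0.18 to 0.22, limma adjusted p = 0.945), which as a fold of shDROSHA over shNC spans 0.882 to 1.17. With this spread a difference of 0.33, or 1.26-fold, would have passed the test. With shDROSHA replicate 2 left out the difference was -0.017, and with shDROSHA replicate 1 left out it was 0.058.

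HMGA1 was the only one of the 10 whose interval lay on one side of 0 with the trended prior, and it was lower. With the constant prior its interval was -0.44 to 0.10. Its probe set (TC0600007748.hg.1, chromosome 6) gave 10.94 and 11.14 in shDROSHA cells, against 11.24 and 11.17 in shNC cells. The groups did not overlap, but the nearest arrays, shDROSHA replicate 2 and shNC replicate 2, were closer to each other than the shDROSHA arrays were to themselves. The log2 difference was -0.17 (SE 0.061, 95% interval -0.30 to -0.04), or 1.12-fold lower, and missed the threshold (limma adjusted p = 0.128). The call depends on 1 array: without shDROSHA replicate 2 the difference was -0.27 and passed (limma adjusted p = 0.000636, with the lone array assumed to vary like the other group), and without shDROSHA replicate 1 it was -0.07 (limma adjusted p = 0.577). In both of these fits limma estimated infinite prior degrees of freedom, so each probe set took the spread of its signal level and its own spread had no weight. With 1 of the shNC arrays left out it was -0.13 (replicate 1) or -0.20 (replicate 2) and did not pass. HMGA1 has processed pseudogenes whose transcripts its probes may not tell apart.

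LIN28A and LIN28B are the RNA-binding inhibitors of let-7 maturation and are themselves let-7 targets, which closes a double-negative loop. Both had signals within the olfactory receptor range. LIN28A (TC0100007457.hg.1, chromosome 1) gave 6.07 and 6.15 in shDROSHA cells, against 6.41 and 6.34 in shNC cells. Both shDROSHA arrays lay below both shNC arrays, with a log2 difference of -0.26 (SE 0.15, 95% interval -0.58 to 0.06, limma adjusted p = 0.386). With the constant prior the LIN28A interval was -0.48 to -0.037, on one side of 0, and the gene did not pass (limma adjusted p = 0.288). LIN28B (TC0600008955.hg.1, chromosome 6) gave 4.12 and 4.18 in shDROSHA cells, against 4.55 and 4.23 in shNC cells. Its groups stood apart by a small gap, and 1 array, shNC replicate 1, was higher than the other 3. The log2 difference of LIN28B was -0.24 (SE 0.202, 95% interval -0.67 to 0.19, limma adjusted p = 0.589), and it became -0.08 with shNC replicate 1 left out and -0.40 with shNC replicate 2 left out. At this signal LIN28A would have needed a difference of 0.53 and LIN28B one of 0.72 to pass.

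The IGF2BP proteins bind mRNAs, including that of insulin-like growth factor 2, and protect or localise them. IGF2BP2 (TC0300013420.hg.1, chromosome 3), which unlike its relatives is also found in many adult tissues, had log2 signals of 9.61 and 9.67 in shDROSHA cells, against 9.66 and 9.73 in shNC cells. The groups overlapped. Its log2 difference of -0.05 (SE 0.066, 95% interval -0.19 to 0.09, limma adjusted p = 0.742) had the narrowest interval of the family, a fold of 0.874 to 1.06. The size needed to pass was 0.23.

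IGF2BP3 (TC0700010463.hg.1, chromosome 7), often re-expressed in carcinomas, gave 8.68 and 8.86 in shDROSHA cells, against 8.50 and 8.77 in shNC cells. The shNC arrays were 0.27 apart, further than the group means. The log2 difference was 0.14 (SE 0.101, 95% interval -0.08 to 0.35, limma adjusted p = 0.52), the highest of the 10 genes. Leaving out an shNC array gave 0.0017 (replicate 1) or 0.27 (replicate 2), leaving out an shDROSHA array gave 0.23 (replicate 1) or 0.05 (replicate 2), and none of these passed.

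IGF2BP1 (TC1700008186.hg.1, chromosome 17), a strong oncofetal marker and let-7 target, was dim. It gave 5.73 and 5.91 in shDROSHA cells, against 5.70 and 5.81 in shNC cells, and the groups overlapped. The log2 difference was 0.06 (SE 0.166, 95% interval -0.29 to 0.42, limma adjusted p = 0.893), and -0.026 without shDROSHA replicate 2.

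The remaining 3 genes act in transcription and in protein and RNA turnover. PLAGL2, a zinc finger transcription factor, was the only one of them above the olfactory receptor range. PLAGL2 (TC2000008845.hg.1, chromosome 20) gave 7.90 and 7.59 in shDROSHA cells, against 7.99 and 7.63 in shNC cells. Replicate 1 was the higher array in both groups, and the replicates were 0.31 apart in shDROSHA and 0.36 apart in shNC. The log2 difference was -0.06 (SE 0.137, 95% interval -0.36 to 0.23, limma adjusted p = 0.875). Its sign was not stable: leaving out an shDROSHA array gave -0.22 (replicate 1) or 0.09 (replicate 2), and leaving out an shNC array gave 0.12 (replicate 1) or -0.24 (replicate 2).

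TRIM71, a ubiquitin ligase and mRNA-binding repressor whose worm counterpart lin-41 was among the first let-7 targets found, lay within the olfactory receptor range. TRIM71 (TC0300006982.hg.1, chromosome 3) gave 6.42 and 6.04 in shDROSHA cells, against 6.48 and 6.33 in shNC cells. The groups overlapped, and shDROSHA replicate 2 was the lowest array. The log2 difference was -0.18 (SE 0.166, 95% interval -0.53 to 0.18, limma adjusted p = 0.637), and 0.013 without shDROSHA replicate 2.

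ARID3B, a DNA-binding protein of the AT-rich interaction domain family, was dim as well. ARID3B (TC1500007851.hg.1, chromosome 15) gave 5.74 and 5.997 in shDROSHA cells, against 5.97 and 5.76 in shNC cells. The group means were nearly equal, with the replicates of each group far apart. The log2 difference was -0.00036 (SE 0.171, 95% interval -0.37 to 0.37, limma adjusted p = 0.999), and its sign turned with quantile normalization and with median centring.

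**Figure D2:**
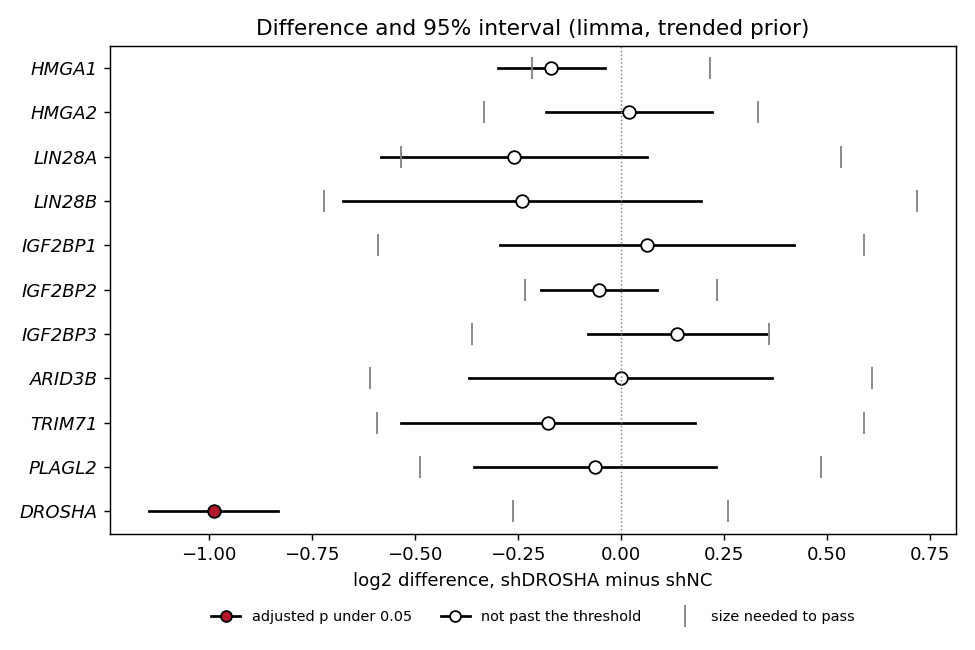
Log2 difference of shDROSHA minus shNC (x axis) for each of the 10 genes and DROSHA, with 95% intervals from limma with a trended prior; grey ticks mark the size at which each probe set would have passed. DROSHA at -0.99 passes, while none of the 10 genes does, and the intervals span -0.18 to 0.22 for HMGA2 and -0.19 to 0.09 for IGF2BP2.

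The intervals give the sizes of change that remain compatible with each gene's values under the fitted prior. For the 5 genes above the olfactory receptor range, the upper end of the 95% interval, as a fold of shDROSHA over shNC, was 0.974 for HMGA1, 1.06 for IGF2BP2, 1.17 for HMGA2 and for PLAGL2, and 1.28 for IGF2BP3. With the constant prior the upper ends of these 5 were 1.07 for HMGA1, 1.12 for IGF2BP2, 1.18 for HMGA2, 1.30 for PLAGL2 and 1.39 for IGF2BP3, so the interval of HMGA1 then held 0 change. For the dim genes the upper ends were 1.05 for LIN28A, 1.13 for TRIM71, 1.14 for LIN28B, 1.29 for ARID3B and 1.34 for IGF2BP1, but there the compression near background means that the fold of the mRNA could be larger than the fold of the signal. With the constant prior the upper end for LIN28A was 0.975, so its interval then did not hold 0 change. The intervals are per gene and are not adjusted for the number of genes.

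The chance of a call rose with signal level, so the 10 genes did not have equal chances of passing. Over all probe sets 0.833% passed in the dimmest of 5 equal bins of signal, which holds LIN28B. The share was 1.94% in the next bin, which holds LIN28A, IGF2BP1, ARID3B and TRIM71, and 4.70% in the middle bin, which holds PLAGL2. HMGA2 and IGF2BP3 lie in a bin with 8.92% called, and HMGA1 and IGF2BP2 in the brightest, with 15.6% called. The median residual SD within groups was 0.171 in the dimmest bin and 0.051 in the brightest.

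**Figure D3:**
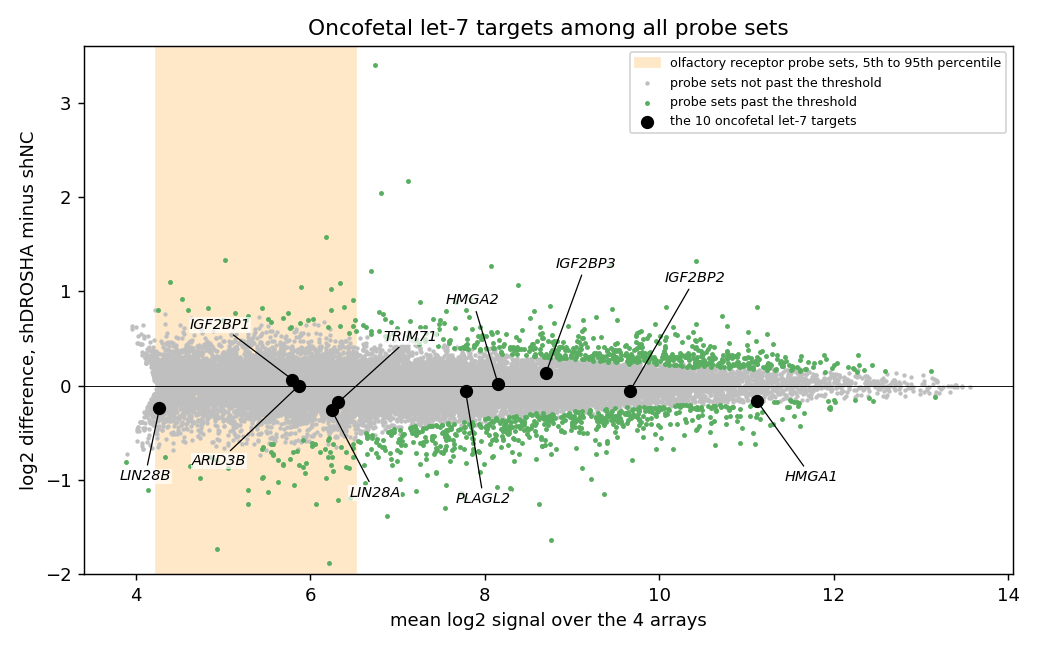
Log2 difference of shDROSHA minus shNC (y axis) against mean log2 signal over the 4 arrays (x axis) for all probe sets, with those past the threshold in green, the 10 genes in black and the olfactory receptor range of 4.23 to 6.53 shaded. All 10 genes lie within the grey band of probe sets that did not pass, 5 of them inside the shaded range.

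The other let-7 targets gave calls in both directions. Of 45 listed genes 42 had a named probe set, and 4 rose, 1 fell and 37 did not pass, so 11.9% were called beside 6.41% of all probe sets. The list was written with earlier results of these data known, so its share of calls is not independent of them. The median log2 difference was 0.04. At an unadjusted p of 0.05 there were 13 (31.0%, beside 19.3% of all probe sets). With the constant prior 0 passed after adjustment and 7 at the unadjusted threshold (16.7%, beside 14.9%). The 5 called genes were THBS1, CDC25A, CDK6, E2F2 and E2F5.

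E2F2, a transcriptional activator of S phase genes, gave 6.92 and 6.69 in shDROSHA cells, against 6.05 and 6.31 in shNC cells. The groups did not overlap, with a log2 difference of 0.63 (SE 0.156, limma adjusted p = 0.0276), but its mean signal lay within the olfactory receptor range. The E2F2 call was lost without shDROSHA replicate 1 (limma adjusted p = 0.0619) and without shNC replicate 1 (limma adjusted p = 0.23). E2F5, a repressor-type E2F, was the one that fell, at 7.11 and 6.85 in shDROSHA cells against 7.87 and 7.94 in shNC cells (SE of the difference 0.123, limma adjusted p = 0.000528). The E2F5 log2 difference stayed between -1.05 and -0.79 when any 1 array was left out. CDC25A, the phosphatase that activates cyclin-dependent kinases, gave 7.31 and 7.29 in shDROSHA cells, against 6.71 and 6.67 in shNC cells. Its mean signal of 6.995 lay above the 95th percentile of the olfactory receptor probe sets but not above their highest value. THBS1, a secreted matrix glycoprotein, gave 9.28 and 9.06 in shDROSHA cells, against 8.31 and 8.35 in shNC cells, and its call held without any 1 of the 4 arrays (highest limma adjusted p = 0.000167). The CDC25A call was lost without shNC replicate 2 (limma adjusted p = 0.057), and that of CDK6, a kinase partner of D cyclins, without shNC replicate 1 (limma adjusted p = 0.0618). Of the genes that missed the threshold, YOD1, a deubiquitinase, was higher by 0.30 (limma adjusted p = 0.115), NAP1L1, a histone chaperone, by 0.19 (limma adjusted p = 0.133) and DICER1 by 0.30 (limma adjusted p = 0.184). MYC, which LIN28B and let-7 link to growth control, differed by 0.09 (SE 0.09, 95% interval -0.10 to 0.28).

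Among regulators of let-7 maturation, 16 of 21 listed genes had a named probe set, and the targeted gene DROSHA was the only one that passed (0 rose and 1 fell, 6.25% beside 6.41% of all probe sets, median 0.03). TUT4 and TUT7 are the uridyltransferases that LIN28 proteins use to mark let-7 precursors, and DIS3L2 is the exonuclease that degrades the marked precursors. Their log2 differences were -0.25 (SE 0.19) for TUT4, -0.12 (SE 0.073) for TUT7 and 0.0019 (SE 0.101) for DIS3L2. AGO2, which carries the mature microRNA, was higher by 0.21 (limma adjusted p = 0.14), and DHX9, an RNA helicase that associates with LIN28A, by 0.17 (limma adjusted p = 0.161). Neither passed.

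Of 9 listed host transcripts of let-7 genes 4 had a named probe set and none passed, beside 6.41% of all probe sets. With so few genes the count says little. HUWE1, whose intron holds let-7f-2 and miR-98, differed by -0.02 (SE 0.089, 95% interval -0.21 to 0.17). WDR82, the host of let-7g, differed by -0.05 (SE 0.067) and SPACA6, at the let-7e locus, by 0.07 (SE 0.144). MIR99AHG, the long non-coding host of let-7c, differed by 0.01 (SE 0.095). The groups of HUWE1, SPACA6 and MIR99AHG overlapped, where 47.8% of all probe sets had groups that did not overlap.

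Relatives of these genes that share a family or a domain were taken as a further comparison. Of 21 listed relatives 17 were measured, 2 rose, 0 fell and 15 did not pass (11.8% called beside 6.41% of all probe sets, median 0.01). HMGB2 and YBX3, the pair that rose, lie in the brightest bin of signal, where 15.6% passed. HMGB2, a high-mobility group protein of proliferating cells that has HMG boxes and no AT-hook, gave 11.08 and 11.01 in shDROSHA cells, against 10.69 and 10.80 in shNC cells. It rose by 0.30 (SE 0.054, limma adjusted p = 0.00389), with groups that did not overlap. YBX3, a cold shock domain protein like the LIN28 pair, rose by 0.26 (SE 0.051, limma adjusted p = 0.00696), a call that was lost without shNC replicate 1 (limma adjusted p = 0.0581). TRIM2 and TRIM32, relatives of TRIM71 in the NHL repeat family, were lower by log2 differences of -0.20 (limma adjusted p = 0.223) and -0.26 (limma adjusted p = 0.283) without passing, and HMGN3, a nucleosome-binding protein, was higher by 0.15 (limma adjusted p = 0.324). Whether HMGA1 or HMGA2 differed from HMGB2 in response was not tested.

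None of the measured messages on a list of mRNAs that IGF2BP proteins are known to bind passed the test. The list shares HMGA2 and LIN28B with the oncofetal targets, and IGF2, MYC and CCND1 with the other let-7 targets, so it is not a separate set. Of 16 listed client mRNAs 14 were measured, 0 rose and 0 fell, beside 6.41% of all probe sets called. In limma 2 had an unadjusted p under 0.05 (14.3%, beside 19.3% of all probe sets), and the constant prior gave 0 at the adjusted threshold and 0 at the unadjusted one, where it had 14.9% of all probe sets. The median was -0.03. ACTB gave a log2 difference of -0.16 (limma adjusted p = 0.193), CCND1 one of -0.13 (limma adjusted p = 0.218) and SRF one of -0.24 (limma adjusted p = 0.38). IGF2, the message that gave the family its name, was dim, at 5.93 and 6.15 in shDROSHA cells against 5.92 and 6.06 in shNC cells. CD44, a surface receptor whose mRNA IGF2BP proteins stabilise, differed by 0.12 (SE 0.073, limma adjusted p = 0.414).

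**Figure D4:**
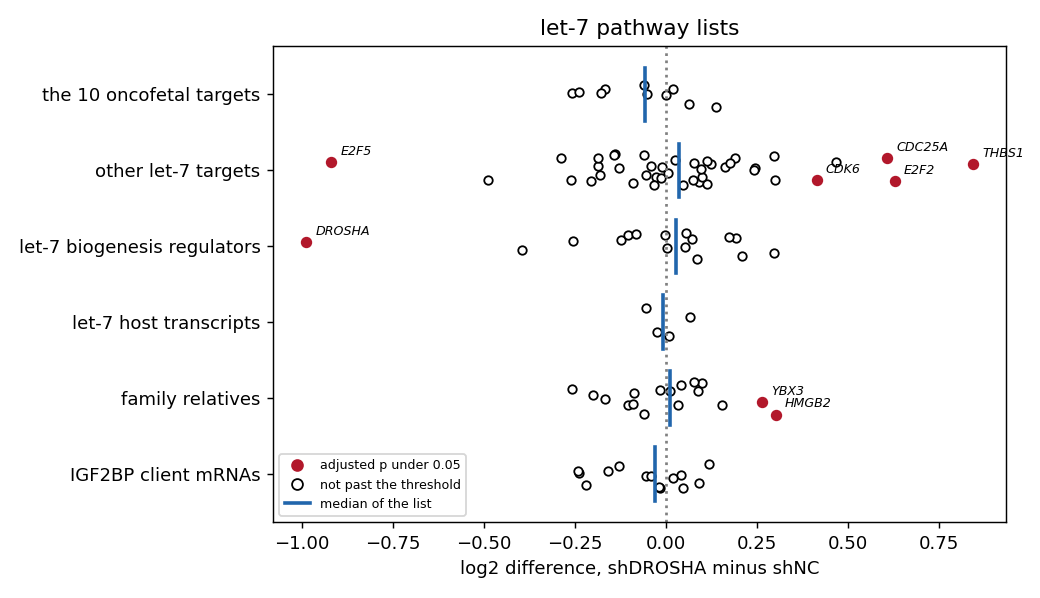
Log2 difference of shDROSHA minus shNC (x axis) for the 10 oncofetal targets and 5 lists of related genes; filled points passed limma at an adjusted p of 0.05, open points did not, blue bars are list medians, and the vertical scatter within a list has no meaning. The 10 oncofetal targets lie between -0.26 and 0.14 with no filled point, while the other let-7 targets lie between -0.92 and 0.84 with 5 filled points. Some genes appear in several lists, and the lists were written with earlier results of these data known.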

How the data were processed

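The authors deposited RMA-processed log2 signals for each probe set, per the submitters' processing notes; no version, build or filter is stated in the sources used here. RMA corrects background, equalises the distributions of the arrays and summarises probes, so a shift of most transcripts in one direction is not visible. Groups and replicate numbers came from the sample titles. The platform annotation named 15886 of 18603 probe sets with 1 gene, 0 with several and 2717 with none, and all 15886 matched RefSeq (GRCh38.p14) by Entrez identifier.

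Groups were compared with lmFit and eBayes of limma 3.58.1 (R 4.3.3) with an intensity trend, which had 2 residual and 11.9 prior degrees of freedom. P-values were adjusted by Benjamini and Hochberg's method across the whole array, at a threshold of 0.05. The fit was tested on simulated data whose spread followed signal level, with 100 probe sets changed by a log2 difference of 0.5 and 100 by 1. With the trended prior 68% and 98% of these passed, and with the constant prior 2% and 66%. Simulated probe sets of equal signal had equal spread, which the trended prior assumes, so these rates do not rank the priors on the real data. They are averages over all signal levels and not rates for the dim genes. Named were all 10 genes, DROSHA and, in each other list, the genes past the threshold and up to 3 more with the smallest p. Some further list members were named for their role after their values were seen (MYC, TUT4, TUT7, DIS3L2, MIR99AHG, IGF2 and CD44). The rule also named genes similar to any of the 10 that passed, and none did. The genes, lists and choice of prior were made with earlier results of these data known. No detection calls were used. Alternatives were a constant or robust prior, a replicate block, further normalization, filters on dim probe sets, 1 probe set per gene, a looser threshold and leaving out each array.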

Additional observations from a re-analysis of the deposited data

How the results depend on the processing

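The count of 0 among the 10 genes was also 0 with a constant or robust prior, with either further normalization, without dim probe sets (which left 5 or 8 of the 10), with a single probe set for each gene and at an adjusted p of 0.10, and it was 0 to 1 when an array was left out, the 1 being HMGA1 without shDROSHA replicate 2. At unadjusted p 0.05 it was 1 in limma with the trended prior (HMGA1) and 1 with the constant prior (LIN28A). Of 123 values of single genes under alternatives, 113 kept direction and side, 9 turned sign and 1 was the HMGA1 call. A different or absent prior, the block, the filters and 1 probe set per gene leave the log2 difference as it was. Direction was therefore fixed in those settings, and the sign could turn only with further normalization or an array left out. Of the 9 turns, 7 came with an array left out. The other turns were of ARID3B, to 0.0042 with quantile normalization and 0.033 with median centring. When an array was left out, log2 differences ranged from -0.017 to 0.058 for HMGA2, -0.026 to 0.15 for IGF2BP1, -0.13 to 0.13 for ARID3B, -0.37 to 0.013 for TRIM71 and -0.24 to 0.12 for PLAGL2. Over all probe sets the count of 1192 became 1 with the constant prior (2774 at unadjusted p 0.05), 1824 at adjusted p 0.10, 3599 at unadjusted p 0.05 and 535 to 1949 without 1 array (535 without shNC replicate 1, 748 without shNC replicate 2, 1949 without shDROSHA replicate 1). With 1 residual degree of freedom left, the prior was estimated with infinite degrees of freedom without either shDROSHA array and with 20.4 or 20.3 without an shNC array, so these adjusted p-values rest almost wholly on pooled spread. The 5 calls among other let-7 targets became 0 with the constant prior, 3 without probe sets below the median signal, which tests 23 of the 42, and 13 at unadjusted p 0.05. Deviations of arrays with the same number correlated at -0.022 across probe sets, so the numbers were not taken as pairs. With the replicate number as a block the counts were 0 of the 10 genes, 6 of the other targets and 1391 of all probe sets, and no call on the 10 genes changed. The looser thresholds act by construction, and for the other differences the cause was not tested. The planned use of other probe sets per gene was not run, since each gene has 1. The dim signals of 5 genes and the 2 arrays per group limit what could be seen.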
